A study of Mus musculus with 4 samples.

Results

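Aminoacyl-tRNA synthetases join each amino acid to its tRNA. The set described here holds 36 of their genes, 20 cytosolic and 16 mitochondrial, among the 47445 genes of the deposited tables. Members were taken by gene symbol, in the older names that the tables use, and those ending in 2 were counted as mitochondrial. All 36 were found, each in 1 row.

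RNA was measured in late 2-cell embryos of C57BL/6N mice, in 2 libraries made after injection of an siRNA to Uqcc3 and in 2 control libraries. Uqcc3 encodes an assembly factor of respiratory complex III, and the series asked what its depletion does to early development. The labels' protocols state that 8-week-old females were assigned at random, that the Uqcc3 siRNA was given at 5 µM and 8 hpi, and that controls received a non-targeting siRNA, with dose and hour matched. Control libraries carry the treatment label "none", and the design text calls them normal embryos, which leaves it unclear if those embryos were injected. Embryos of normal shape were chosen for sequencing in both groups, and the number of embryos per library was not found in the labels. Nothing states that replicates came from separate injection days, so p-values measure only how far these libraries spread, and that spread may be technical.

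The cytosolic enzymes charge the tRNAs used by cytosolic ribosomes. The mitochondrial enzymes are nuclear-encoded, are imported, and charge tRNAs transcribed from mitochondrial DNA, so that the respiratory subunits encoded there can be made. Part of the cytosolic set sits in a multisynthetase complex held together by the scaffold proteins Aimp1, Aimp2 and Eef1e1. Two-cell embryos still use maternal transcripts while their own genome becomes active, and translation at this stage draws on both. In transcript data from whole embryos, fewer cells and less RNA per cell cannot be told apart.

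Uqcc3 stood at 23.7 and 19.8 FPKM in siRNA replicates 1 and 2, against 147 and 211 FPKM in control replicates 1 and 2. FPKM is the number of fragments scaled to transcript length and to library depth. Levels of different genes are set side by side on this scale, though values of siRNA replicate 2 still moved with length, as given below. Depth was about 11700000 and 11900000 fragments in the siRNA libraries, against 16700000 and 19000000 in the controls, as inferred from the deposited error bounds. The siRNA replicate 2 library stood apart: 9771 genes reached 1 FPKM there, against 11818 to 12202 in the other 3 libraries. Mitochondrially encoded mRNA made up 17.9% and 3.41% of summed FPKM in siRNA replicates 1 and 2, against 9.98% and 11.8% in control replicates 1 and 2. The mitochondrial ribosomal RNA mt-Rnr1 stood at 4320 and 8736 FPKM with siRNA, against 3767 and 1780 FPKM in controls. The nuclear gene Rn18s-rs5, which carries ribosomal RNA sequence, stood at 566 and 14506 FPKM in siRNA replicates 1 and 2, against 1023 and 183 FPKM in control replicates 1 and 2. Of 13 markers of the 2-cell embryo, 10 to 12 reached 1 FPKM in each library, with summed levels of 927 and 560 FPKM with siRNA, against 1303 and 1722 FPKM in controls. Of 13 oocyte-derived transcripts, 12 or 13 did so, with sums of 1735 and 1500 FPKM with siRNA, against 1802 and 2126 FPKM in controls. Cumulus and granulosa markers summed to 8.02 and 1.36 FPKM with siRNA, against 3.47 and 14.2 FPKM in controls, with Amh, Fshr and Star at 0 in every library. Of these 12 markers, 2 and 0 reached 1 FPKM with siRNA, against 1 and 1 in controls. Markers of sperm, blood and blastocyst lineages summed to between 5.65 and 50.9 FPKM in each library, with Akap4, Alas2, Hbb-bs, Cdx2, Elf5, Krt8 and Sox17 at 0 throughout. Others were present: 5 and 2 of 10 sperm markers reached 1 FPKM with siRNA, against 5 and 5 in controls. For blood it was 4 and 1 of 9, against 4 and 3, and for blastocyst lineages 4 and 3 of 11, against 2 and 2. The part of these differences between libraries in the values below was not tested.

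In controls the synthetases covered a wide range of levels. Fars2, which charges mitochondrial phenylalanine tRNA, was the highest of all members in both controls, at 107 and 104 FPKM, and stood at 71.6 and 50.4 FPKM in siRNA replicates 1 and 2. Eprs, which charges both glutamate and proline, was the highest cytosolic member in both controls. Rars, Nars and Farsb followed it by control mean, and the ranges of these 3 genes over the control libraries overlapped. The median of the 20 cytosolic genes was 5.58 and 7.61 FPKM in siRNA replicates 1 and 2, against 10.5 and 9.86 FPKM in control replicates 1 and 2. The median of the 16 mitochondrial genes was 1.28 and 1.46 FPKM with siRNA, against 2.57 and 1.64 FPKM in controls. The cytosolic median thus lay above the mitochondrial median in each of the 4 libraries. Fars2 and Lars2 alone made up 83.6% and 83.8% of the summed mitochondrial FPKM with siRNA, against 80.6% and 79.5% in controls.

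**Figure D1:**
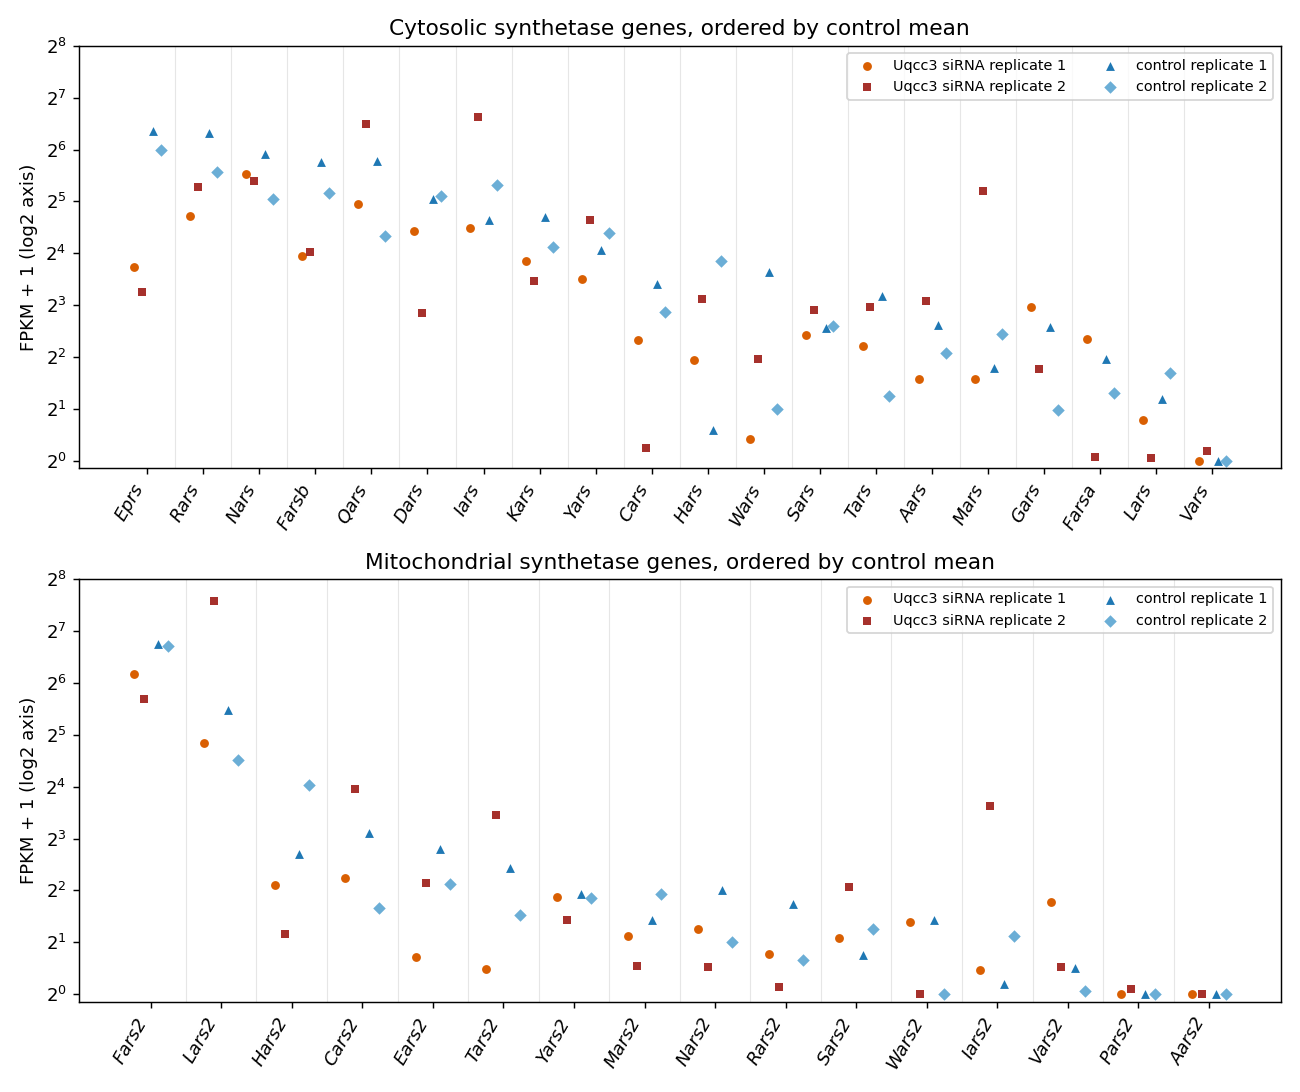
FPKM + 1 on a log2 axis for every cytosolic (upper) and mitochondrial (lower) synthetase gene, with 1 point per library and genes ordered by control mean. Both siRNA points lie below both control points for 7 cytosolic and 3 mitochondrial genes, Eprs and Fars2 among them, while siRNA replicate 2 is far above the other libraries for Mars, Lars2 and Iars2.

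No synthetase passed the test between siRNA and control libraries. In limma on log2(FPKM + 1), fitted over the 12390 genes that reached 1 FPKM in 2 or more libraries, 0 of the 31 members tested had an adjusted p under 0.05, and 0% of all tested genes did. With no adjustment 1 member, Eprs, had p under 0.05, against 5.96% of all tested genes. In 10 of the 31 tested members (32.3%) both siRNA libraries lay below both controls, where 30.0% of all tested genes did, so the share was near the background. None of the tested members had both siRNA libraries above both controls, against 8.6% of all tested genes. In 7 members the siRNA libraries fell on opposite sides of both controls, against 21.8% of all genes. Vars, Aars2, Pars2, Rars2 and Vars2 did not reach the minimum level, and counted over all 36 members 10 lay below and 1, Vars2, above. For any single value, the smallest two-sided p of an exact permutation test in this design is 0.333.

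As groups, cytosolic and mitochondrial synthetases lay at similar differences from controls. The median log2 difference was -0.17 over the 19 tested cytosolic genes and -0.13 over the 12 tested mitochondrial genes, where all tested genes had -0.39. Relative to all genes these medians stood at 0.22 and 0.26. In siRNA replicate 1 alone the cytosolic and mitochondrial medians were -0.55 and -0.22, and in siRNA replicate 2 alone -0.09 and -0.39. Their order thus changed between these libraries. Both siRNA libraries lay below both controls for 7 of 19 cytosolic genes (36.8%) and 3 of 12 mitochondrial genes (25%), against 30.0% of all tested genes. The difference of the group medians, cytosolic minus mitochondrial, was 1.64 and 1.02 on the log2(FPKM + 1) scale in siRNA replicates 1 and 2, against 1.42 and 2.09 in control replicates 1 and 2, so the groups overlapped. Summed FPKM of the cytosolic genes was 1.88 and 1.38 times that of the mitochondrial genes with siRNA, against 2.54 and 2.16 times in controls. Those ranges did not overlap, and they rest largely on Fars2 and Lars2. Without these 2 genes, the mitochondrial sum was 19.5 and 46.8 FPKM with siRNA, against 36.2 and 32.5 FPKM in controls.

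Both medians changed side with the scaling. The mitochondrial median was between 0.056 and 0.22 under the 4 scalings tried. The cytosolic median was 0.25 after rescaling to TPM and 0.17 after quantile normalization, with all genes at -0.08 and 0.01 there. As deposited, 20 of the 31 members had a negative and 11 a positive difference, while the TPM, median-of-ratios and cyclic loess scalings each gave 14 and 17, and quantile normalization 13 and 18. Relative to all genes it stayed 0.16 to 0.33 higher under the 4 scalings and was -0.01 after a correction for transcript length.

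Among the cytosolic genes, Eprs had the smallest p. It encodes the only member with 2 synthetase activities, joined in 1 chain, and lies on chromosome 1 from 185363044 to 185428360 in mm10. Eprs stood at 12.2 and 8.57 FPKM in siRNA replicates 1 and 2, against 81.2 and 62.5 FPKM in control replicates 1 and 2. The mean was 10.4 ± 2.59 FPKM with siRNA and 71.8 ± 13.2 FPKM in controls (SD, n = 2 each). Both siRNA libraries were far below both controls, and its log2 difference was -2.68 (SE 0.71). That did not pass over all genes in limma (unadjusted p = 0.00548, adjusted p = 0.745). Over 13 alternatives its log2 difference ranged from -3.09 to -2.20 and its adjusted p from 0.0295 to 0.9998, and it passed only without siRNA replicate 1, where siRNA replicate 2 is the only library of its group.

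The cytosolic phenylalanine enzyme works as a tetramer of 2 kinds of subunit, and neither gene passed. Farsb, the beta subunit, stood at 14.5 and 15.3 FPKM in siRNA replicates 1 and 2, against 53.1 and 34.9 FPKM in control replicates 1 and 2, a log2 difference of -1.47 (SE 0.71, limma adjusted p = 0.745). The siRNA libraries lay close together and under both controls. Farsa, the alpha subunit with the catalytic site, stood at 4.06 and 0.0502 FPKM with siRNA, against 2.90 and 1.48 FPKM in controls. One siRNA library was above and the other below both controls. Of the Farsb transcript, 10.1% of 50-base words are shared with Sgpp2, an overlapping gene that stood at 0.286 FPKM or less in every library.

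Cars and Dars followed Eprs and Farsb by p. Cars, for cysteine, stood at 3.99 and 0.181 FPKM in siRNA replicates 1 and 2, against 9.60 and 6.29 FPKM in control replicates 1 and 2 (log2 difference -1.86, SE 1.09). Dars, for aspartate, stood at 20.4 and 6.20 FPKM with siRNA, against 31.9 and 33.4 FPKM in controls (log2 difference -1.44, SE 0.83). Both genes were below the controls in both siRNA libraries, by more in replicate 2, and neither passed in limma (adjusted p = 0.745 for each). For Cars the authors' bounds of siRNA replicate 1 (up to 6.14 FPKM) and control replicate 2 (from 4.40 FPKM) overlap.

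Lars and Rars were lower by smaller margins. Lars, for leucine, was among the lowest cytosolic members, at 0.726 and 0.0425 FPKM with siRNA, against 1.28 and 2.23 FPKM in controls (log2 difference -1.01, SE 0.72, limma adjusted p = 0.766). Rars, for arginine, was among the highest, at 25.3 and 38.0 FPKM with siRNA, against 78.4 and 46.2 FPKM in controls (log2 difference -0.94, SE 0.69, limma adjusted p = 0.772). Under TPM, median-of-ratios scaling and cyclic loess the Rars libraries no longer separated, and under quantile normalization those of Lars did not. Nars, for asparagine, was the highest cytosolic gene in siRNA replicate 1. It stood at 45.0 and 41.1 FPKM with siRNA, between its control values of 59.7 and 32.2 FPKM.

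The multisynthetase complex is described as a group whose count was added after the data were seen. It was taken as 8 synthetases and 3 scaffold proteins, and both siRNA libraries lay below both controls for 8 of the 11 components, against 30.0% of all tested genes. All 3 scaffold genes were among these 8. Aimp2, a scaffold subunit, stood at 97.1 and 32.0 FPKM in siRNA replicates 1 and 2, against 235 and 239 FPKM in control replicates 1 and 2 (log2 difference -2.07, SE 0.71). Aimp1, which also binds tRNA, stood at 0.628 and 0 FPKM with siRNA, against 9.63 and 3.57 FPKM in controls. Neither passed in limma (unadjusted p = 0.0199 and 0.0296, adjusted p = 0.745 for both). Eef1e1, the smallest scaffold protein, stood at 51.1 and 12.1 FPKM with siRNA, against 65.6 and 54.1 FPKM in controls. The authors' bounds for siRNA replicate 1 reach 2.75 FPKM for Aimp1 and 55.5 FPKM for Eef1e1. Those for control replicate 2 begin at 1.79 and 50.6 FPKM, so they overlap. With Eprs, 3 of the 11 components had an unadjusted p under 0.05, against 5.96% of all tested genes, and 0 passed over all genes. The median log2 difference over the 11 was -1.01, which is -0.63 relative to all genes.

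The members of this complex divided into a lower set and a set that was high in siRNA replicate 2. In both siRNA libraries Eprs, Dars, Lars, Rars and Kars were under the controls. Kars, for lysine, supplies both compartments from 1 gene and stood at 13.5 and 10.0 FPKM with siRNA, against 24.96 and 16.3 FPKM in controls. The authors' bounds for Kars reach 15.1 FPKM in siRNA replicate 1 and begin at 14.8 FPKM in control replicate 2, so they overlap. Iars, for isoleucine, stood at 21.6 and 97.9 FPKM with siRNA, against 23.9 and 39.0 FPKM in controls. Qars, for glutamine, stood at 30.0 and 88.7 FPKM with siRNA, against 54.0 and 19.2 FPKM in controls. Mars, for methionine, stood at 1.99 and 35.6 FPKM with siRNA, against 2.45 and 4.44 FPKM in controls. For these 3 genes siRNA replicate 2 was above both controls and siRNA replicate 1 was not. The count of 8 was 6 after rescaling to TPM, where 21.4% of all genes lay below. It was 5 under median-of-ratios scaling, quantile normalization and cyclic loess, where 19.1%, 18.7% and 18.5% of all genes did. After the correction for transcript length it was 8, where 32.0% of all genes lay below. Eprs, Dars, Aimp1 and Aimp2 stayed below under all 4 scalings, Eef1e1 under none and Kars and Rars under 1 each.

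**Figure D2:**
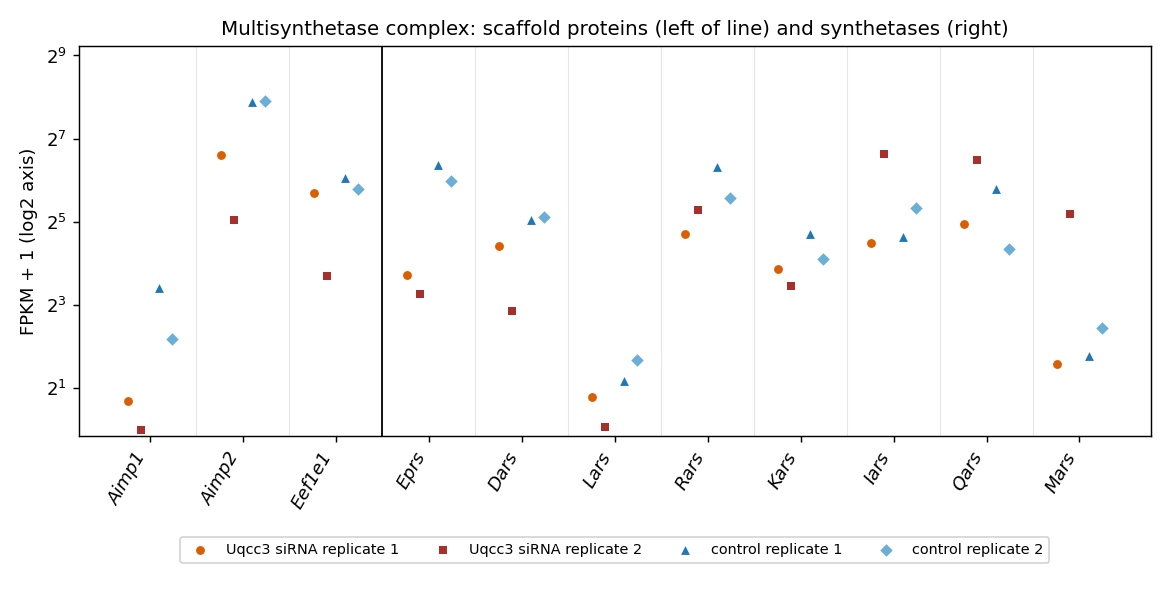
FPKM + 1 on a log2 axis for the 3 scaffold genes and 8 synthetase genes of the multisynthetase complex, with 1 point per library and genes ordered by log2 difference within each class. The siRNA points of 8 genes lie below both control points, and for Iars, Qars and Mars the siRNA replicate 2 point is the highest.

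The remaining cytosolic members overlapped the controls or lay on both sides of them. Gars, for glycine, also serves both compartments, and stood at 6.79 and 2.39 FPKM with siRNA, against 5.01 and 0.967 FPKM in controls. Wars, for tryptophan, differed more within groups than between them, at 0.332 and 2.90 FPKM with siRNA, against 11.4 and 0.992 FPKM in controls. Hars, for histidine, likewise stood at 2.85 and 7.73 FPKM with siRNA, against 0.513 and 13.4 FPKM in controls. Tars, for threonine, stood at 3.65 and 6.76 FPKM with siRNA, against 8.02 and 1.38 FPKM in controls.

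Yars, Sars and Aars had log2 differences of -0.17, 0.09 and -0.02. Yars, for tyrosine, stood at 10.3 and 23.8 FPKM with siRNA, against 15.8 and 20.02 FPKM in controls. Sars, for serine, stood at 4.36 and 6.48 FPKM with siRNA, against 4.85 and 5.04 FPKM in controls. Aars, for alanine, stood at 1.97 and 7.48 FPKM with siRNA, against 5.15 and 3.24 FPKM in controls. In all 3 genes siRNA replicate 1 was the lowest library and siRNA replicate 2 the highest. Vars, for valine, was listed at 0 in siRNA replicate 1 and both controls and at 0.138 FPKM in siRNA replicate 2. Its value is uncertain. Vars was not among the 2 genes with a failed estimate, and the reason for its listing at 0 was not tested.

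Among mitochondrial members the smallest p belonged to Hars2 and Fars2, which were lower, and to Lars2 and Iars2, which were high in 1 siRNA library. Hars2, for histidine, stood at 3.30 and 1.23 FPKM in siRNA replicates 1 and 2, against 5.55 and 15.5 FPKM in control replicates 1 and 2 (log2 difference -1.75, SE 1.03, limma adjusted p = 0.745). Fars2 averaged 61.0 ± 15.0 FPKM with siRNA and 106 ± 1.73 FPKM in controls (SD, n = 2 each), with a log2 difference of -0.80 (SE 0.61, limma adjusted p = 0.780). Both genes lay below the controls in both siRNA libraries. For Hars2 the authors' bounds of siRNA replicate 1 (up to 4.53 FPKM) and control replicate 1 (from 4.07 FPKM) overlap. Fars2 no longer separated under cyclic loess.

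Lars2, the mitochondrial leucine enzyme, stood at 27.7 and 191 FPKM in siRNA replicates 1 and 2, against 43.7 and 21.7 FPKM in control replicates 1 and 2. Iars2, for isoleucine, stood at 0.384 and 11.3 FPKM with siRNA, against 0.146 and 1.16 FPKM in controls. In each gene siRNA replicate 1 lay between the controls and siRNA replicate 2 far above them. Their log2 differences of 1.22 (SE 0.97) and 1.39 (SE 1.15) did not pass in limma (adjusted p = 0.786 and 0.794). Without siRNA replicate 2 the log2 differences turned to -0.15 and -0.19. Without siRNA replicate 1, Eprs, Lars2 and Mars passed in limma, among 1477 genes in all. Rn18s-rs5 was also highest in siRNA replicate 2, as given above, and its part in these values was not tested. Of the longest Lars2 transcript, 3 of 3845 words of 50 bases occur in another gene's transcripts. Of the longest Iars2 transcript 36.6% of such words are shared with the overlapping gene Rab3gap2, which stood at 3.30 and 2.37 FPKM with siRNA, against 2.72 and 4.12 FPKM in controls, so values of Iars2 are uncertain.

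Mars2 and Ears2 completed the 6 mitochondrial genes with the smallest p. Mars2, for methionine, stood at 1.17 and 0.453 FPKM with siRNA, against 1.6998 and 2.82 FPKM in controls (log2 difference -0.85, SE 0.79, limma adjusted p = 0.809). The siRNA libraries did not overlap the controls, though under median-of-ratios scaling and quantile normalization they did. Ears2, for glutamate, stood at 0.635 and 3.42 FPKM with siRNA, against 5.91 and 3.36 FPKM in controls (log2 difference -1.03, SE 1.00, limma adjusted p = 0.815). Its siRNA replicate 2 fell just above the lower control.

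Tars2, for threonine, had siRNA libraries on opposite sides of both controls. It stood at 0.395 and 9.94 FPKM with siRNA, against 4.39 and 1.88 FPKM in controls. Cars2, for cysteine, stood at 3.72 and 14.5 FPKM with siRNA, against 7.58 and 2.17 FPKM in controls, and Sars2, for serine, at 1.12 and 3.19 FPKM with siRNA, against 0.679 and 1.40 FPKM in controls. In these genes siRNA replicate 2 was again the highest library. Nars2, Yars2 and Wars2 stood at 3.005 FPKM or less in every library and overlapped the controls.

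The mitochondrial members under the minimum level were Rars2, Vars2, Pars2 and Aars2. Vars2, for valine, was the only member above both controls in both siRNA libraries, at 2.42 and 0.442 FPKM, against 0.411 and 0.0401 FPKM in controls. The authors' bounds run from 0 to 1.25 FPKM for its siRNA replicate 2 and from 0 to 0.988 FPKM for control replicate 1, so they overlap. Rars2, for arginine, stood at 0.698 and 0.0925 FPKM with siRNA, against 2.32 and 0.581 FPKM in controls. Pars2, for proline, was listed at 0 except for 0.0768 FPKM in siRNA replicate 2, and Aars2, for alanine, was listed at 0 in all 4 libraries.

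The siRNA libraries differed from each other by more than the controls did. Over the 31 tested members the median absolute log2 difference between libraries was 1.18 within siRNA, against 0.67 within controls, and over all genes it was 1.28 within siRNA, against 0.60 within controls. In siRNA replicate 1 the median of the cytosolic genes lay 0.24 below that of all genes, and in siRNA replicate 2 it lay 0.48 above. The mitochondrial medians stood at 0.09 and 0.19 relative to all genes in siRNA replicates 1 and 2. Members with a positive difference from the control mean numbered 6 of 31 in siRNA replicate 1 and 13 of 31 in siRNA replicate 2, against 4497 and 4854 of the 12390 tested genes. Leaving out siRNA replicate 2 brought the cytosolic genes below the controls to 13 of 19, against 48.3% of all genes in that fit.

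**Figure D3:**
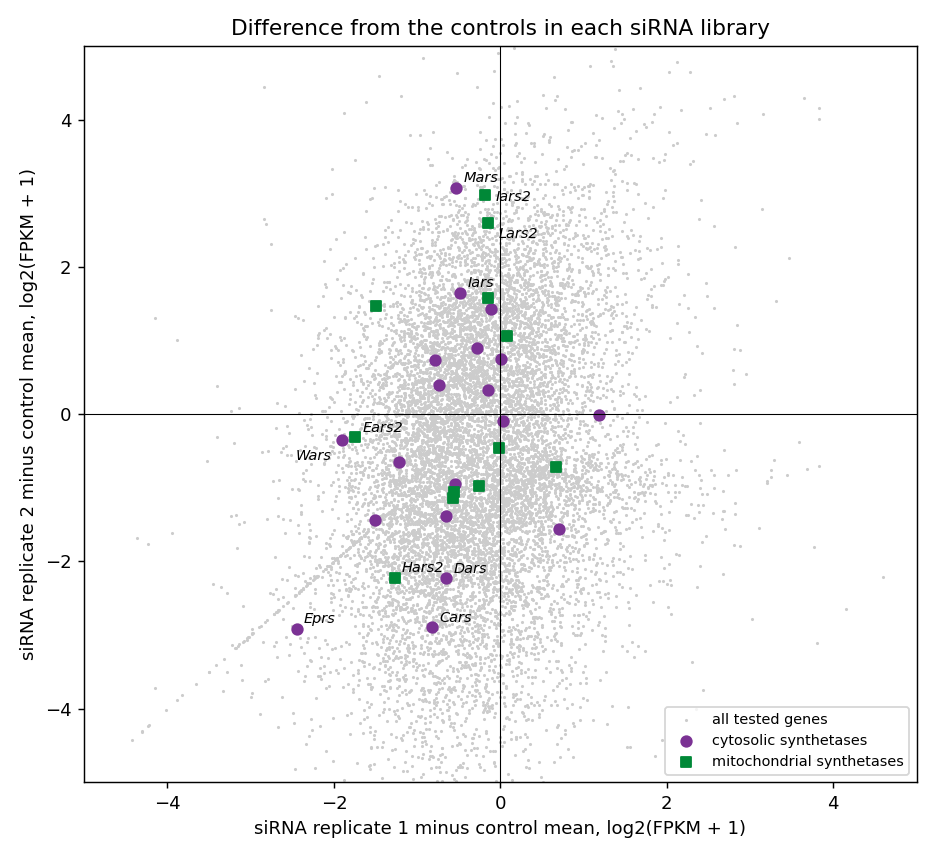
Difference from the control mean in siRNA replicate 1 (horizontal) and siRNA replicate 2 (vertical) on the log2(FPKM + 1) scale, for all tested genes (grey) and the 31 tested synthetases (coloured), with 118 genes outside the plotted range. Eprs is low on both axes, whereas Mars, Iars2 and Lars2 lie just left of 0 on the horizontal axis and high on the vertical axis.

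Transcript length moved with the values of siRNA replicate 2. In 4 equal bins of the tested genes ordered by length of the longest annotated transcript, the median difference from controls in that library was -1.42, -0.70, -0.15 and 0.25 from the shortest to the longest. In siRNA replicate 1 it was -0.36, -0.35, -0.29 and -0.24. Synthetase transcripts are long, with a median of 3339 bases over the 36 members against 2681 bases over all tested genes. None of the tested members was in the shortest bin, 7 in the next, 17 in the next and 7 in the longest. After a loess correction for length the cytosolic and mitochondrial medians stood at -0.01 and 0.05 relative to all genes.

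Set against each other amino acid by amino acid, the cytosolic gene was usually the higher one. Of 13 amino acids with 1 listed gene for each compartment, the cytosolic gene was higher in all 4 libraries for 7 and the mitochondrial gene for 2. Rars, Iars and Nars stood furthest above their partners in controls. The exceptions were leucine and valine. Lars2 exceeded Lars by 4.05 and 7.53 on the log2(FPKM + 1) scale in siRNA replicates 1 and 2, against 4.30 and 2.82 in control replicates 1 and 2. Vars stood at 0.138 FPKM or less in every library, and Vars2 at 2.42 FPKM in siRNA replicate 1 and 0.442 FPKM or less elsewhere. For cysteine, histidine, threonine and tryptophan the order varied between libraries. Cars2 stood below Cars in siRNA replicate 1 and both controls and above it in siRNA replicate 2, by 3.71 on the log2 scale.

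**Figure D4:**
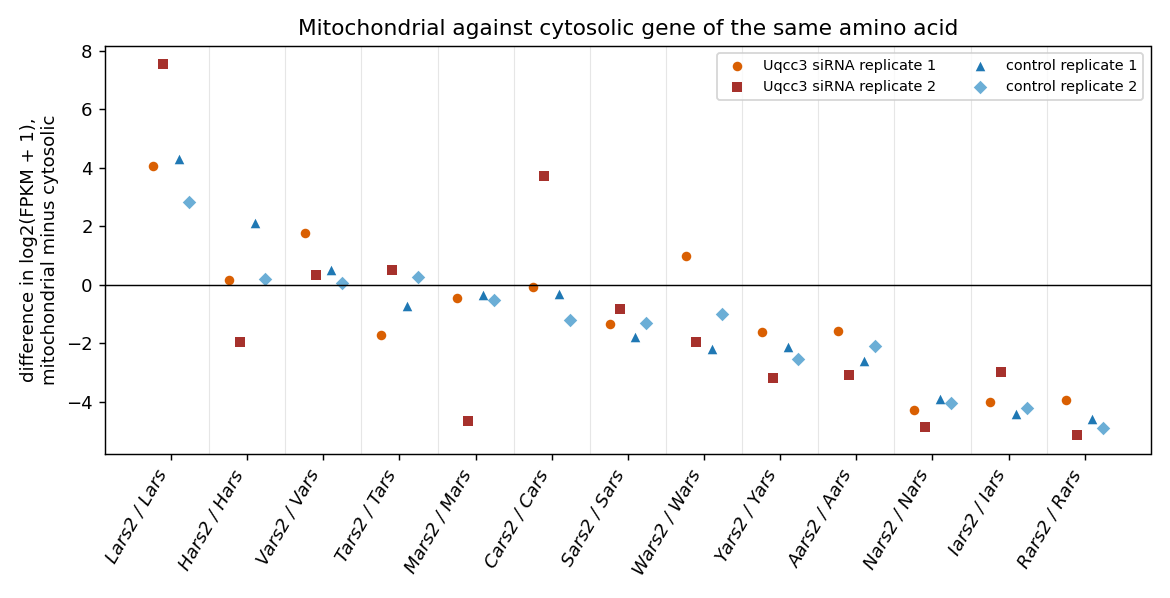
Difference in log2(FPKM + 1), mitochondrial minus cytosolic gene, for 13 amino acids, with 1 point per library and pairs ordered by their control mean. Lars2 lies above Lars in every library, and Rars2, Iars2 and Nars2 lie furthest below their partners in controls. The siRNA replicate 2 point stands apart for Cars2, Mars2 and Lars2.

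By fold class of the catalytic domain, both siRNA libraries lay below both controls for 4 of 15 tested class I genes (26.7%) and 5 of 15 class II genes (33.3%), near the 30.0% of all tested genes, with Eprs, which holds a domain of each class, counted in neither. The median log2 differences were -0.17 for class I and -0.03 for class II.

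Further genes of tRNA charging were described from lists, the first of which also holds the 3 scaffold genes above. Of 21 tested partners of charging and of mitochondrial tRNA maturation, 11 (52.4%) lay below the controls in both siRNA libraries and 2 (9.52%) above, where 30.0% and 8.6% of all tested genes did. Aimp1, Aimp2 and Eef1e1 are among the 11. The median log2 difference of the list was -0.81, which is -0.42 relative to all genes. Transcripts of the listed genes had a median of 2328 bases, and Aimp2, Hsd17b10, Dtd1 and Pusl1 fall in the shortest length bin above. After the correction for length Aimp1, Aimp2 and Eef1e1 still lay below both controls, where 32.0% of all genes did. For the other listed genes the part of length was not tested. The count was not recomputed under the other scalings, where 18.5% to 21.4% of all genes lay below. The 3 with the smallest p were Aimp2, Aimp1 and Trmt10c. Trmt10c, a methyltransferase that is also a subunit of mitochondrial RNase P, stood at 15.7 and 16.7 FPKM with siRNA, against 52.1 and 61.7 FPKM in controls (log2 difference -1.75). None of the 21 passed in limma, while before adjustment 4 of the 21 had p under 0.05, against 5.96% of all tested genes. Aimp1 and Aimp2 are among these 4 and were also counted with the complex above. Hsd17b10, another RNase P subunit and the last of those 4, stood at 6.04 and 0.0955 FPKM with siRNA, against 11.6 and 37.6 FPKM in controls.

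The subunits of the amidotransferase that turns glutamate into glutamine on mitochondrial tRNA, Gatb, Gatc and Qrsl1, lay below the controls in both siRNA libraries, with log2 differences of -1.92, -1.25 and -0.80. They stood at 2.57 FPKM or less with siRNA, and none passed in limma (adjusted p = 0.745, 0.785 and 0.843). The authors' bounds overlap for Gatb (siRNA replicate 1 up to 2.90 FPKM, control replicate 1 from 1.17 FPKM). They also overlap for Gatc (siRNA replicate 2 up to 3.27 FPKM, control replicate 2 from 2.44 FPKM), and not for Qrsl1. The amidotransferase acts on tRNA charged by Ears2, and its genes are named after their values were seen. Trnt1, which adds the CCA end that every tRNA needs for charging and is named for that role, stood at 49.8 and 54.0 FPKM with siRNA, against 105 and 79.996 FPKM in controls.

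The factors that work with charged tRNA at the ribosome were listed together with their regulators and with termination and recycling factors. Of 11 cytosolic factors 2 lay below both controls and 2 above (18.2% each, against 30.0% and 8.6% of all tested genes), with a median log2 difference of -0.02. Eef1a1, which carries the charged tRNA to the ribosome and is named for that role, stood at 100.3 and 82.7 FPKM with siRNA, against 90.6 and 94.1 FPKM in controls. The smallest p belonged to Eif5a, Eef1d and Eef2k, with log2 differences of -0.83, -0.96 and 1.25. Eif5a stood at 116 and 105 FPKM with siRNA, against 166 and 235 FPKM in controls. Eef1d stood at 26.5 and 60.3 FPKM with siRNA, against 65.5 and 95.3 FPKM in controls, and Eef2k at 5.66 and 12.7 FPKM, against 3.80 and 2.36 FPKM. The authors' bounds overlap for Eef1d (siRNA replicate 2 up to 66.3 FPKM, control replicate 1 from 60.1 FPKM). They also overlap for Eef2k (siRNA replicate 1 from 4.27 FPKM, control replicate 1 up to 4.94 FPKM). Of 12 tested mitochondrial factors, a list that also holds the transcription factor Tfam, 4 (33.3%) were under both controls and none over them, close to the 30.0% of all tested genes for lower values, and their median log2 difference was -0.63. Mrrf, Ict1 and Tsfm, which recycle ribosomes, release stalled peptides and reload the elongation factor, had log2 differences of -2.06, -2.22 and -1.36. Mrrf stood at 7.10 and 0.727 FPKM with siRNA, against 16.5 and 12.96 FPKM in controls. Ict1 stood at 7.31 and 0.118 FPKM with siRNA, against 15.6 and 11.1 FPKM in controls. Tsfm stood at 1.38 and 2.88 FPKM, against 7.75 and 5.92 FPKM. Mrrf and Ict1 were lower by more in siRNA replicate 2, and Tsfm in replicate 1. For Ict1 the authors' bounds of siRNA replicate 1 (up to 10.18 FPKM) and control replicate 2 (from 8.47 FPKM) overlap. Those of Mrrf and Tsfm do not. Neither list held a gene that passed in limma, or 1 with p under 0.05 before adjustment.

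Many cytosolic synthetase genes are known targets of Atf4, the transcription factor of the amino acid response. Of 15 tested genes linked to Atf4 and amino acid supply, both siRNA values were under both control values for 2 and over them for 1, where 30.0% and 8.6% of all tested genes were. The median log2 difference was -0.09, while the list median was -0.52 for siRNA replicate 1 alone (4 of 15 genes positive) and 0.42 for siRNA replicate 2 alone (10 of 15). Slc7a11, a cystine transporter subunit and the gene over both controls, stood at 1.47 and 5.47 FPKM with siRNA, against 0.710 and 1.14 FPKM in controls. For Slc7a11 the authors' bounds of siRNA replicate 1 (from 1.01 FPKM) and control replicate 2 (up to 1.58 FPKM) overlap. Psph, of serine synthesis, stood at 1.65 and 0.116 FPKM with siRNA, against 5.91 and 16.8 FPKM in controls. Slc3a2, a chain of amino acid exchangers, stood at 18.6 and 22.6 FPKM with siRNA, against 42.1 and 51.9 FPKM in controls. Ddit3 stood at 26.9 and 12.5 FPKM with siRNA, against 22.0 and 76.0 FPKM in controls. Atf4 itself, named after its values were seen, stood at 11.5 and 234 FPKM with siRNA, against 29.8 and 15.3 FPKM in controls. None passed in limma, while before adjustment Psph alone of the 15 had p under 0.05, against 5.96% of all tested genes. Exons of Ddit3 and Mars overlap by 68 bases on opposite strands.

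Promoters were searched for the letters TGATGNAA, the core of elements that Atf4 binds together with C/EBP proteins, and for CACGTG, the E-box bound by Myc. The RefSeq windows, build GRCm38.p6, covered the 250 bases before the start of 27 of the 36 members, and both strands were read. Those of Cars, Hars, Lars, Nars, Rars, Vars, Wars, Hars2 and Pars2 were not used here. Each motif was found in 3 members, all cytosolic, and in 3.45% and 6.02% of 32851 promoters of all genes. The matches of Gars and Tars to the first motif, and of Farsb and Iars to the second, are shown to place them beside the values above, with the motif, or its reverse complement, in capitals:
Gars, TGATGNAA, chr6:55037959-55037990, plus strand: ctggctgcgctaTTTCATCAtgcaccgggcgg
Tars, TGATGNAA, chr15:11399659-11399685, minus strand: ccaggagtcccgTTGCATCAgctggtt
Farsb, CACGTG, chr1:78488919-78488948, minus strand: ttagacaggcatCACGTGagacagcccaag
Iars, CACGTG, chr13:49682049-49682078, plus strand: gaccaatcgccaCACGTGttgtttgtaggt

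The match to the Atf4 motif began 30 and 15 bases before the start of Gars and Tars. The siRNA and control values of Gars and Tars overlapped, as given above. A match of letters is no evidence of binding, and members with no match, Eprs among them, may hold other forms of the element or hold it elsewhere.

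Several members share their start region with a gene on the other strand. In GENCODE M21, 9 members have a protein-coding gene that starts within 1000 bases on the opposite strand. The start of Fars2 lies 114 bases from that of Lyrm4, an iron-sulfur cluster assembly gene. Lyrm4 stood at 79.0 and 0.859 FPKM with siRNA, against 75.2 and 87.5 FPKM in controls, so the pair differed most in siRNA replicate 2. Hars and Hars2 start 197 bases from each other and have 195 bases of exon in common. Without strand information in the counting, which the sources used here do not state, fragments from that stretch cannot be told apart. Sars2 starts 172 bases from Mrps12, a mitochondrial ribosomal protein gene, which stood at 9.03 and 14.4 FPKM with siRNA, against 6.70 and 34.3 FPKM in controls. Of the longest Aars transcript 22.4% of 50-base words are shared with Exosc6, and of the longest Iars transcript 8.61% with Gm4849, so these values are uncertain.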

How the data were processed

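RNA of late 2-cell mouse embryos was measured in 4 libraries, grouped by treatment label. The authors deposited 1 table of FPKM values with lower and upper bounds per library, per the file headers. Cufflinks 2.2.1, Cuffdiff 2.2.1, STAR 2.7.3a, Trim Galore 0.6.5, SAMtools 1.7 and the mm10 build are named in the submitters' processing notes, and the annotation release is not stated there. Full-length cDNA was amplified from an oligo(dT) primer, per the labels' protocols, so duplicates are not independent molecules. Replicates were numbered in accession order.

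Rows of 1 gene identifier were summed, and 2 genes with a failed estimate were left out. On log2(FPKM + 1), genes that reached 1 FPKM in 2 or more libraries were tested in R 4.3.3 by limma 3.58.1, trend included, two-sided, Benjamini-Hochberg adjusted over 12390 genes at 0.05. This scale understates changes of low genes. Depth was the median, over single-transcript genes, of fragments implied by the upper bound. Of identifiers, 99.1% matched GENCODE M21 (GRCm38), which gave lengths and positions. Members and lists were chosen with earlier results of these data known. Values in every library are given, by rule, for the 6 smallest p and the 3 highest and 3 lowest per compartment, members above both controls, those with siRNA libraries over 4-fold apart on opposite sides, Gars, Kars, Farsa and Farsb, and 3 genes per list. Other members are added. Alternatives changed pseudocount, filter, scaling, trend, length and the libraries used. The remaining promoter matches are not reported here.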

Additional observations from a re-analysis of the deposited data

How the results depend on the processing

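Each result was recomputed under 13 alternatives. The cytosolic median log2 difference of -0.17 became -0.027 with a filter at 5 FPKM, 0.25 with TPM, 0.23 with median-of-ratios scaling, 0.17 with quantile normalization, 0.24 with cyclic loess and -0.44 with the length correction. It ranged from -0.59 (without control replicate 2) to -0.091 over the fits that leave out 1 library. The mitochondrial median and the cytosolic minus mitochondrial difference moved by less than the spread between replicates, although the mitochondrial median was positive under all 4 scalings and, at 0.096, without control replicate 1. The cytosolic minus mitochondrial difference, -0.03 with all libraries, was -0.33 without siRNA replicate 2 and 0.30 without siRNA replicate 1. Cytosolic genes below both controls numbered 7 of 19, 6 with TPM, 5 under the other 3 scalings, and 8 to 13 with 1 library left out, the highest without siRNA replicate 2. The share of all genes was 30.0% as deposited and 21.4% with TPM. It was 19.1%, 18.7% and 18.5% under median-of-ratios scaling, quantile normalization and cyclic loess. Of all genes 41.9% to 50.5% lay below with 1 library left out. The mitochondrial count of 3 became 2 under those 3 scalings and the 5 FPKM filter, 5 with the length correction (32.0% of all genes) and ranged from 3 to 7 with 1 library left out. Components of the multisynthetase complex below both controls numbered 5 under median-of-ratios scaling, quantile normalization and cyclic loess, where 19.1%, 18.7% and 18.5% of all genes did.

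No synthetase and no gene passed in limma except without siRNA replicate 1, where 3 synthetases and 1477 genes did. These counts ranged from 0 to 3 and from 0 to 1477 over the fits that leave out a library. Uqcc3 had a log2 difference of -2.97 (adjusted p = 0.745) and passed only in that fit, at -3.09, and ranged from -3.23 to -2.71 with 1 library left out. Lars2 and Iars2 turned to -0.15 and -0.19 without siRNA replicate 2, and reached 2.59 and 2.97 without siRNA replicate 1. The other 10 members with the smallest p kept their direction under every alternative that tested them. Ears2, Iars2, Lars and Mars2 could not be tested with a filter at 5 FPKM. Depth limits genes under 1 FPKM most. No paired analysis was possible because the labels carry no replicate numbers.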
